A study of Caenorhabditis elegans with 2 samples.

Results

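Regions near the ends of a convergent pair of genes were the subject: 608 of the 30000 candidate regions that the authors deposited for the pooled replicates, all on the 5 autosomes of Caenorhabditis elegans. A region was a member when its summit lay in the end window of at least 1 protein-coding gene on the plus strand and 1 on the minus strand, a window that began 200 bp inside an annotated gene end and reached 500 bp past it. Its summit also had to lie outside every protein-coding start window (from 500 bp before a start to 200 bp into the gene) and more than 200 bp from any tRNA, snoRNA or snRNA gene. The rule used positions only, so the signal of the members was not part of their choice. It did not ask for a summit between the ends: in 163 members the summit lay there, in 432 it lay inside 1 gene and past the end of the other, and in 13 inside both. The 608 members fell at 550 different pairs of convergent gene ends, out of 3092 such pairs on the autosomes, and 57 of these pairs held more than 1 member.

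The data were chromatin immunoprecipitation sequencing (ChIP-seq) region lists from whole worms, which locate the DNA a protein is attached to in chromatin. The only group was strain OP598, genotype unc-119(tm4063) III with the transgene wgIs598, in which T26A5.8 is stably expressed with a GFP-FLAG tag at its C-terminus. Pooled male and female young adults were taken 63 h after synchronization as starved L1 larvae, chromatin was fragmented by sonication, and tagged protein was recovered with an antibody against GFP. The group had 2 biological replicates, numbered 3 and 4, and no second condition. Both carried the unc-119 mutation and the same transgene, the promoter driving the transgene is not stated in the labels, and the signal of a whole worm is an average over all its cell types. Control libraries were not analysed here.

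RefSeq names T26A5.8 pole-3, subunit 3 of DNA polymerase epsilon. The human protein of that name is a histone-fold protein found in the polymerase that copies the leading strand and in a chromatin remodelling complex. At a convergent pair, 2 genes on opposite strands are transcribed towards each other and their 3′ ends meet or overlap. RNA polymerase transcribes past the annotated end of a gene before it lets go of the DNA, and the transcript is cut and given a poly(A) tail shortly after a signal such as AATAAA. Sequence past that cut is lost from the mature message. The annotated end of a gene stands for the cut only where a 3′ UTR is annotated, and otherwise is the end of the coding sequence. Distances here are from annotated ends.

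Sequence between the ends is printed for 5 members at which the summit lay outside both genes, to show the DNA under strong regions that lay away from gene starts and annotated small RNA genes. The 5 were the thresholded members of highest signal with the summit between ends 60 to 300 bp apart. Each is the whole stretch between the annotated ends, on the plus strand of WBcel235 (ce11) from the RefSeq genome sequence, and capitals mark the 21 bases centred on the summit. They lie at IV:17281331-17281454 (124 bases, 37.1% G and C), III:6373905-6374096 (192 bases, 36.5%), III:4491393-4491626 (234 bases, 35.5%), IV:11146016-11146105 (90 bases, 33.3%) and III:89244-89452 (209 bases, 42.6%), in the order given here.
hsp-1 / nra-1: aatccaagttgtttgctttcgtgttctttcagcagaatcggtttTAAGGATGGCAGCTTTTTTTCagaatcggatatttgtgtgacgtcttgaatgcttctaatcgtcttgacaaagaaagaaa
thoc-2 / rps-13: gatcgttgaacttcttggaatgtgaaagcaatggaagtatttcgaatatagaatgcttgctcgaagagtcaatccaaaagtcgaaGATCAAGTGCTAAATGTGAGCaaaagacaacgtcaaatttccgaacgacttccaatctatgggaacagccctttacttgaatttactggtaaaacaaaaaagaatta
cpg-1 / atf-7: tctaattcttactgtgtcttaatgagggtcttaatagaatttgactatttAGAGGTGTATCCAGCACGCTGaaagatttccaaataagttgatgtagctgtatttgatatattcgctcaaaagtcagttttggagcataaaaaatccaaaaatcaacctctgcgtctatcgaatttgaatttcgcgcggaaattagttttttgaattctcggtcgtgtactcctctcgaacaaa
F01G4.4 / pigq-1: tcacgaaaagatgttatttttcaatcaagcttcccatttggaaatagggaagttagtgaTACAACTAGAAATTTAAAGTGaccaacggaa
mrpl-40 / pat-4: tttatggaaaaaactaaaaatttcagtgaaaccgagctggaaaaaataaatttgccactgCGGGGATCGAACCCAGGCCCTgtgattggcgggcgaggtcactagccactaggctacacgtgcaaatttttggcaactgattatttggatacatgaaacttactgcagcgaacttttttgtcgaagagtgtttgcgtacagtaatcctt

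In the stretch between hsp-1 and nra-1 the summit lay at base 55, beside a run of 7 T. Between thoc-2 and rps-13 it lay at base 96 of 192, the midpoint of the stretch. Between F01G4.4 and pigq-1 it lay at base 70 of 90. At all of the printed pairs the region was wider than the stretch and reached into both genes.

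Regions at convergent ends passed the authors' reproducibility threshold more often than the list as a whole did. The irreproducible discovery rate (IDR) procedure keeps regions that rank alike in replicates, and the authors' thresholded list held 369 regions. Of the 608 members, 37 overlapped 1 of them, a share of 6.09% (exact 95% binomial interval 4.32 to 8.29). Over all 30000 pooled entries the share was 1.47%, and over the 23565 autosomal entries more than 200 bp from small RNA genes it was 1.03%. Intervals here count regions, not sequencing reads, whose number is unknown, and regions of 1 list are not replicates of a condition. Differences between classes of regions were not tested.

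Several pooled entries can overlap 1 thresholded region, so the count of 37 holds neighbours of strong entries. The 37 members lay over 28 thresholded regions, at 28 pairs of gene ends. At glt-6 with vdac-1, C36E8.4 with tbb-2 and rfc-3 with dli-1 the thresholded region's own summit lay near ends of 1 strand only. For 27 members no other pooled entry over the same thresholded region was stronger, and their signal ran from 76.0 to 188.0. The other 10 lay beside a stronger entry and had a signal of 20.8 to 68.8, and 9 of them shared the pair of gene ends with that stronger member. With the 27 alone the share was 4.44%. The signal is the authors' own enrichment value, its scaling is not stated, and it is used only within a list.

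The other autosomal regions more than 200 bp from small RNA genes were placed in 4 classes by the same windows. Regions at a lone end, where only genes of 1 strand ended, overlapped the thresholded list in 65 of 2717 cases (2.39%, 1.85 to 3.04). Regions with both an end and a start did so in 62 of 1350 cases (4.59%, 3.54 to 5.85), an interval that overlaps that of the convergent ends. Regions at a start only did so in 27 of 2378 cases (1.14%), and regions near neither in 51 of 16512 (0.309%). With only the strongest entry per thresholded region, the share was 4.44% at convergent ends (27 of 608) and 1.66% at lone ends. Regions with both an end and a start then kept 51 of 1350, so the lead of convergent ends over that class was narrower by this count. With every overlapping entry counted, the share at convergent ends stood above those of the 4 other classes. Its interval overlapped only that of regions with both an end and a start.

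Signal followed a like order. The median signal of members was 31.5 in the pooled list (95% interval 29.9 to 33.5, quartiles 24.1 and 45.5, highest 188.0), against 28.8 at lone ends, 31.5 at an end and a start, 26.4 at starts only and 25.9 at neither. In rank, the median member stood at percentile 68.5 of the 30000 entries (62.9 to 74.1), against 68.5 at an end and a start (65.3 to 71.5), 59.1 at lone ends and 45.8 at neither. Among members, 171 (28.1%) were in the strongest 10% of the whole list, against 25.9% of regions with an end and a start, 15.2% of lone ends and 6.06% of regions near neither. By signal, convergent ends and regions with an end and a start therefore stood side by side. Most members were still of middling signal: the 571 that did not overlap the thresholded list had a median of 30.9, with a lowest of 19.4 and a highest of 88.4.

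**Figure D1:**
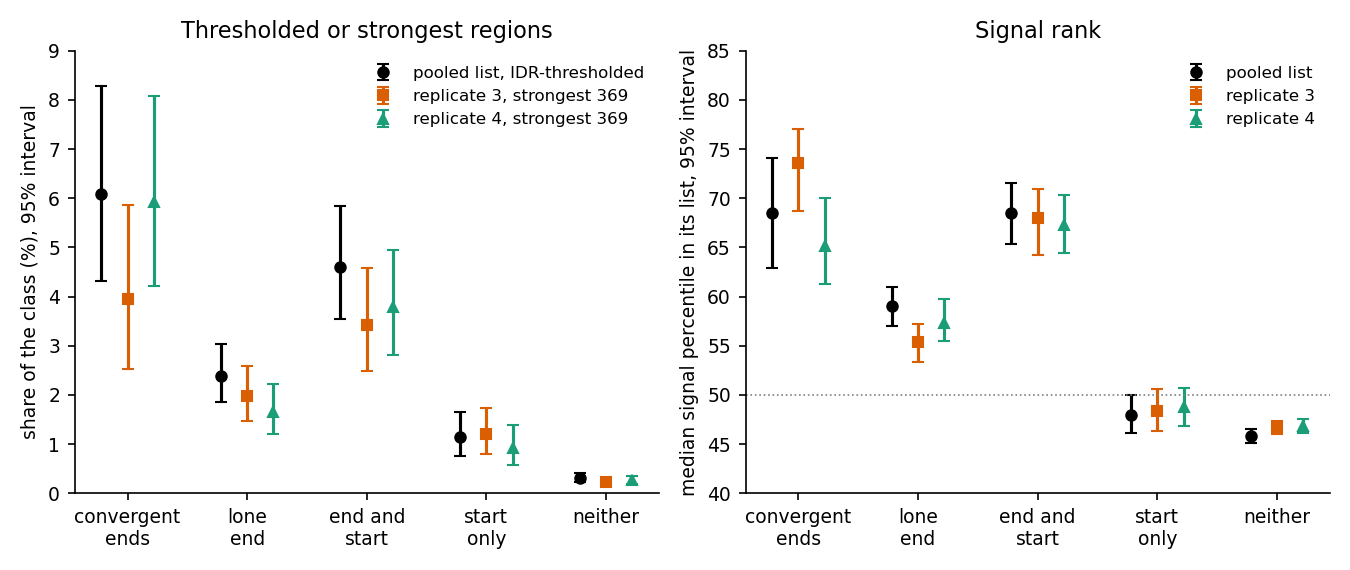
Left, the share of each class of autosomal regions (per cent, with exact 95% binomial intervals) that overlapped the thresholded list or was among the 369 strongest entries of a replicate. Right, the median signal percentile with its 95% interval, the dotted line marking the middle of a list. Convergent ends stood at 6.09%, 3.95% and 5.93% in the pooled list, replicate 3 and replicate 4, against 2.39%, 1.98% and 1.65% for lone ends.

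Each replicate's own list of 30000 entries gave the same order of convergent over lone ends when the rule was applied to it. In replicate 3 the rule took 583 entries, of which 23 were among the 369 strongest of that list (3.95%, 2.52 to 5.86), against 3.42% of regions with an end and a start, 1.98% of lone ends and 0.781% of all autosomal entries away from small RNA genes. In replicate 4 it took 624 entries, of which 37 were among the 369 strongest (5.93%, 4.21 to 8.08), against 3.78% of regions with an end and a start, 1.65% of lone ends and 0.825% of all such entries. The median percentile was 73.6 in replicate 3 (68.7 to 77.1) and 65.1 in replicate 4 (61.2 to 70.0), against 68.0 and 67.2 at an end and a start and 55.4 and 57.3 at lone ends. In replicate 4 the median at an end and a start was thus the higher of the pair.

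Of the 608 members of the pooled list, 497 overlapped an entry of replicate 3, 484 an entry of replicate 4 and 398 an entry of both (65.5%, 61.5 to 69.2). The share found in both was 53.7% at lone ends, 59.3% at an end and a start, 40.9% at starts only and 40.3% near neither. Over the 398 members, Pearson's r between the replicates' log10 signals was 0.545 and Spearman's rho 0.459, against 0.415 and 0.287 over the 10292 autosomal entries away from small RNA genes that were found in both. These are descriptions, since the pooled list was made from the same replicates and entries share libraries. The 27 strongest entries over thresholded regions had a signal of 35.2 to 102.6 in replicate 3 (median 56.1) and of 33.6 to 89.0 in replicate 4 (median 54.7). Of these 27, 21 were among the 369 strongest entries of replicate 3, 22 among those of replicate 4 and 17 among both.

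**Figure D2:**
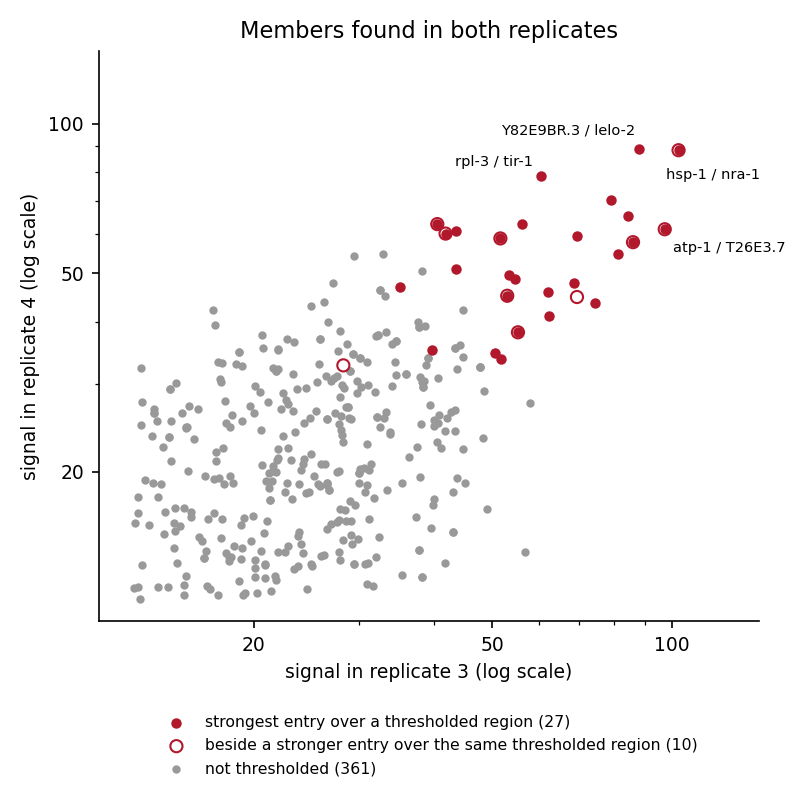
Signal of the 398 members found in both replicates, replicate 3 on the x axis and replicate 4 on the y axis, both on log scales. Filled red points are the 27 strongest entries over thresholded regions, which sit at 35.2 or more in replicate 3 and 33.6 or more in replicate 4. Open circles are the 10 weaker neighbours, most of which overlap the same replicate entry as the stronger member and so fall on its point, and grey points are members that were not thresholded.

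The highest signal lay between hsp-1, which encodes the constitutive Hsp70 chaperone, and nra-1, a copine gene. This region, at chromosome IV, 17281249 to 17281600, had a signal of 188.0 in the pooled list, 102.6 in replicate 3 and 88.4 in replicate 4. Its summit lay in the 124 bp between the ends, 55 bp past the end of hsp-1 and 70 bp past that of nra-1, and its sequence is the first of those printed. The next, at chromosome III, 1419900 to 1420098, lay where Y82E9BR.3, which encodes subunit c of mitochondrial ATP synthase, meets lelo-2. It had 173.5 in the pooled list, 88.2 in replicate 3 and 89.0 in replicate 4, with the summit 133 bp past the end of Y82E9BR.3 and 147 bp inside the end of lelo-2, in a coding exon. Both members were high in both replicates.

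The member at atp-1, the alpha subunit of mitochondrial ATP synthase, and T26E3.7 had 153.8 in the pooled list, 97.2 in replicate 3 and 61.3 in replicate 4. It lay at chromosome I, 12654609 to 12654968, between the ends, 134 bp past atp-1. The member at rib-2, a heparan sulfate glycosyltransferase gene, and ran-1, which encodes the Ran GTPase of nuclear transport, had 150.2, with 84.5 in replicate 3 and 65.2 in replicate 4 (chromosome III, 10746316 to 10746675). There the genes overlapped by 95 bp, and the summit lay 85 bp past the end of ran-1, in a coding exon of rib-2. The member at cct-7, a subunit of the cytosolic CCT chaperonin, and zig-11 had 149.0, with 79.1 in replicate 3 and 70.3 in replicate 4 (chromosome V, 1875592 to 1875689), and its summit lay 168 bp past cct-7, in a 3′ UTR. In these 3 members the summit lay past the end of atp-1, ran-1 and cct-7, as it did for hsp-1 and Y82E9BR.3.

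Genes of small RNA pathways, picked out here after the values were seen, stood at members of differing signal. The member at prg-1, which encodes the Piwi Argonaute that binds piRNAs, and D2030.12 had 137.4 in the pooled list, 86.1 in replicate 3 and 57.8 in replicate 4, with the summit 93 bp past prg-1 (chromosome I, 7585056 to 7585415). The member at hrde-1, a nuclear Argonaute of inherited silencing, and C16C10.4 had 90.2, with 40.5 in replicate 3 and 62.8 in replicate 4 (chromosome III, 4172156 to 4172515). The member at rde-12, an RNA interference helicase, and mip-2 had 83.6, with 50.6 in replicate 3 and 34.6 in replicate 4. All 3 were thresholded. Members at other genes of such pathways named here were not, and had less signal in the pooled list. They were pid-4 (60.6), smut-1 (59.4), mut-16 (59.1), wago-1 (50.6), nrde-1 (38.9), ppw-2 (32.8) and pid-5 (24.0). The stronger member is given where a pair held more than 1.

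Genes of the eggshell and egg surface, also picked out after the values were seen, varied likewise. The member between cbd-1, a chitin-binding eggshell protein gene, and fbxb-76 had 116.8 in the pooled list, 68.5 in replicate 3 and 47.9 in replicate 4 (chromosome IV, 11377496 to 11377855). That between cpg-1, an eggshell chondroitin proteoglycan gene, and atf-7, a bZIP transcription factor gene of the innate immune response, had 111.4, with 69.4 in replicate 3 and 59.4 in replicate 4 (chromosome III, 4491273 to 4491632). Their summits lay 49 bp past cbd-1 and 61 bp past cpg-1, the gene whose end was nearer in each case. Members at perm-3 (61.3), egg-1 (53.0), egg-4 (40.6) and cpg-2 (29.8), the strongest at each pair, were not thresholded.

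Ribosomal protein genes stood at 4 thresholded members. The member at rpl-3 and tir-1 had 135.1 in the pooled list, 60.5 in replicate 3 and 78.4 in replicate 4 (chromosome III, 3869529 to 3869888). That at rps-13 and thoc-2, which encodes a subunit of the THO complex of message export, had 114.8, with 56.1 in replicate 3 and 62.8 in replicate 4 (chromosome III, 6373820 to 6374179). Those at rpl-32 with chmp-7 and at rla-1 with arl-13 had 107.9 and 101.5. At rpl-3, rps-13 and rpl-32 the summit lay 122, 97 and 164 bp past the end of the ribosomal protein gene, while at rla-1 it lay 167 bp inside it and 155 bp past arl-13.

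The remaining strongest entries over thresholded regions had signals from 76.0 to 129.3. That at hmg-12, which encodes a DNA-binding high mobility group protein, and lin-29, a developmental timing factor gene, had 129.3. That at vdac-1, the mitochondrial outer membrane channel, and glt-6, a glutamate transporter gene, had 117.9, and that at F01G4.4 and pigq-1 107.7. The member between mrpl-40, a mitochondrial ribosomal protein gene, and pat-4, the integrin-linked kinase gene, had 100.4. Genes of the mitochondrion recurred at tin-9.1 with klp-18 (99.4), cox-4 with sac-2 (97.5) and cts-1 with best-18 (92.1), which encode an import chaperone, a cytochrome c oxidase subunit and citrate synthase. Others were nlp-40 with rcor-1 (99.2), vps-32.1 with C56C10.9 (96.5), tbb-2, a beta-tubulin gene, with C36E8.4 (84.2), the polyubiquitin gene ubq-1 with F25B5.5 (82.2), let-99 with K08E7.4 (81.7) and mml-1 with T20B12.4 (76.0). The mitochondrial genes were picked out after these values had been seen. Theirs was not always the nearer end: the summit lay 365 bp past tin-9.1 but 1 bp inside klp-18, and sac-2 ended nearer than cox-4. Members at other mitochondrial genes, such as tomm-40 (53.1), nuo-5 (44.9), cox-6A (41.8) and tomm-7 (41.7), were not thresholded.

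Weaker thresholded members sat next to these strong entries. They were at F01G4.4 with pigq-1 (68.8), hsp-1 with nra-1 (51.9), C16C10.4 with hrde-1 (48.0), klp-18 with tin-9.1 (37.2), best-18 with cts-1 (31.9), cpg-1 with atf-7 (31.1), sac-2 with cox-4 (28.9), D2030.12 with prg-1 (28.6) and atp-1 with T26E3.7 (20.8). The member at rfc-3, a replication factor C subunit gene, and dli-1 had 23.1 and was the only 1 of the 10 whose stronger neighbour was not at the same pair of gene ends. Its summit lay inside both genes, within 2 bp of the end of rfc-3.

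Members off the thresholded list reached signals as high as some on it. The 20 strongest members all overlapped it, as did 28 of the strongest 50 and 28 of the strongest 100, and all of the strongest 50 were found in both replicates. The strongest member off the list, at F53F10.2 and F53F10.1, had 88.4 in the pooled list, 38.3 in replicate 3 and 50.5 in replicate 4. It was followed by members at rpl-11.1 with pygl-1 (83.6), ndk-1, a nucleoside diphosphate kinase gene, with F25H2.4 (82.1), sams-3, an S-adenosylmethionine synthetase gene, with C06E7.4 (80.4) and the calmodulin gene cmd-1 with T21H3.5 (80.4). The next were tiar-1 with osta-2 (77.4), pos-1, a maternal RNA-binding protein gene, with lmd-3 (76.6), rps-2 with C49H3.3 (76.0), aagr-1 with D2096.7 (75.8) and the germ granule helicase gene glh-2 with che-1 (75.5). Of these 10, 1 was among the 369 strongest entries of replicate 3 and 6 among those of replicate 4, and 4 were among neither. Their pooled signals overlap those of the 27 strongest entries over thresholded regions, which began at 76.0, and lie above those of the 10 weaker thresholded members.

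In 595 members (97.9%) the summit lay past at least 1 of the ends, as did 94.0% of the bases in which the rule allows a summit. The median summit was 67.5 bp past the nearer of the ends (quartiles -37 and 129, negative values lying inside the gene), and 418 of 608 (68.75%) were past it. Thresholded members were 13 of the 163 between the ends (7.98%), 23 of the 432 inside 1 gene (5.32%) and 1 of the 13 inside both, against 6.09% over all members. Inside 1 gene, the summit lay a median of 126 bp past the end of the opposite gene (quartiles 80.75 and 186), and in the 16 such strongest entries over thresholded regions 134 bp (114.75 and 165, lowest 80, highest 365).

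**Figure D3:**
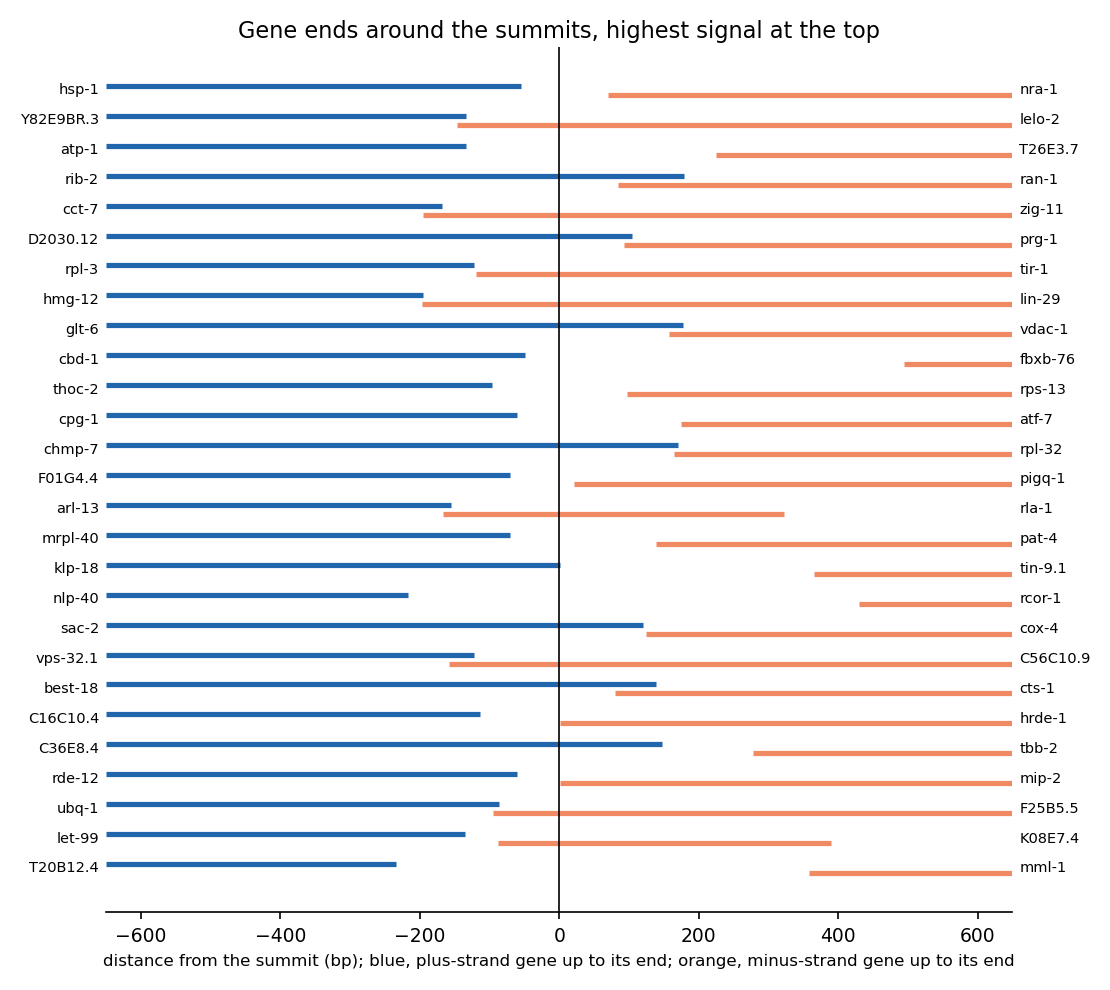
Gene ends around the summits of the 27 strongest entries over thresholded regions, highest pooled signal at the top. The x axis is the distance from the summit in bp along the plus strand, the blue line is the plus-strand gene and the orange line the minus-strand gene, each drawn to its annotated end and cut at the edge of the plot. In 11 members the summit line falls in the gap between the ends and in 16 it crosses 1 gene.

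Because the windows overlap on both genes, the places were also set against the DNA that could hold a member. The windows of the class covered 1.21 Mb, of which 30.5% lay between the ends, 63.5% inside 1 gene and 5.99% inside both. Members stood at 440.8 per Mb between the ends, 562.3 inside 1 gene and 179.2 inside both. Thresholded members stood at 35.2, 29.9 and 13.8 per Mb. Over the whole class there were 502.2 members and 30.6 thresholded members per Mb, against 391.8 and 9.37 at lone ends, 524.0 and 24.1 at an end and a start, and 262.8 and 0.812 near neither.

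Each member was then placed by its distance past both of its gene ends, so that it counts once for each of 1216 ends, 758 of which (62.3%) its summit had passed. Of the bases of the class, counted in the same way, 62.3% lay past an end, so the summits were past an end as often as the bases were. By this count summits were dense from 101 to 200 bp past an end, at 672.0 per Mb, and sparse from 99 bp inside to the end itself, at 329.0 per Mb. They were also dense 100 to 200 bp inside a gene (685.1 per Mb). These dense places are not separate, since the median pair of ends was 10 bp apart. A summit inside 1 gene was often counted again past the opposite end, as at Y82E9BR.3 (133 bp past) with lelo-2 (147 bp inside). Beyond 300 bp the density was 404.5 and then 360.8 per Mb. At lone ends the density was highest farther out, at 594.9 per Mb from 301 to 400 bp past the end, and 276.1 per Mb from 100 to 200 bp inside. The share of thresholded regions was highest from 1 to 100 bp past the end in both classes. It was 8.73% for convergent ends (5.42 to 13.2) and 6.06% for lone ends (3.17 to 10.3), and these intervals overlapped those of most other bins. A convergent member can count more than once in 1 bin, as at hsp-1 with nra-1 (55 and 70 bp), and a lone-end region cannot. The shares and intervals of the classes are therefore not alike. Per Mb, convergent ends held 41.0 thresholded counts from 1 to 100 bp past the end and 40.7 from 100 to 200 bp inside, partly of the same members. Lone ends held 14.4 from 1 to 100 bp past the end and most from 201 to 300 bp past it, at 20.1.

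**Figure D4:**
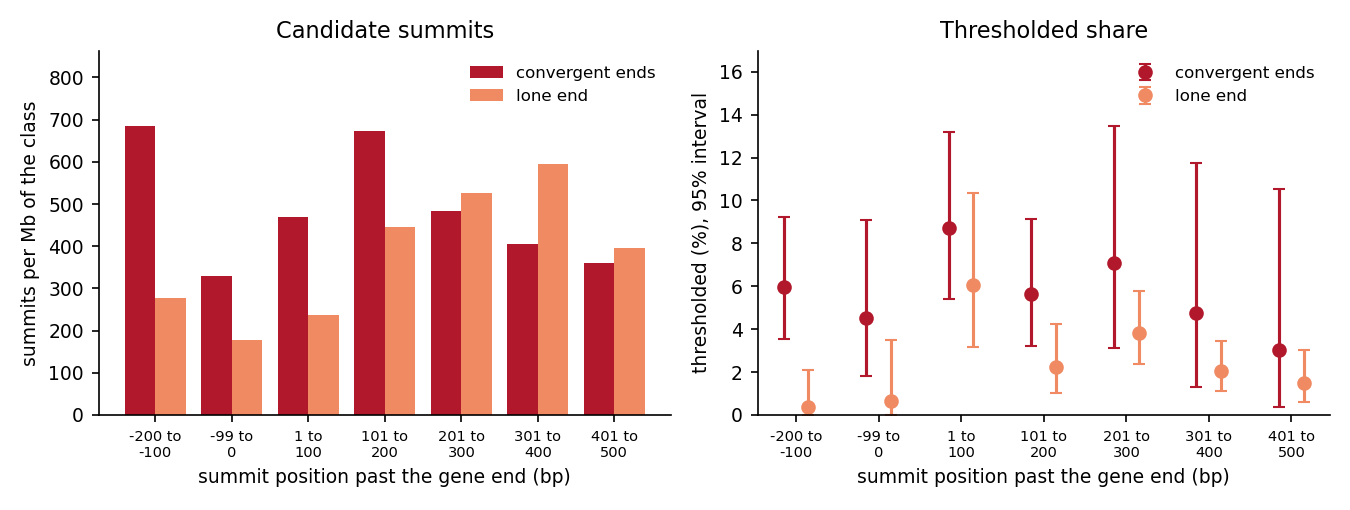
Left, summits per Mb of each class by position past a gene end (bp, negative inside the gene), each convergent member counted once at both of its ends, for convergent and lone ends. Right, the share of these counts that was thresholded (per cent, with exact 95% binomial intervals). Convergent ends stood at 672.0 per Mb from 101 to 200 bp past the end, against 446.0 for lone ends.

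Thresholded members occurred at overlapping ends and at ends far apart. The median member lay at a pair of ends 10 bp apart (quartiles -22 and 268.25, negative where the genes overlap), and the median thresholded member at a pair 60 bp apart. Overlapping ends held 269 members, of which 14 were thresholded (5.20%). Ends less than 200 bp apart without overlap held 141, with 13 thresholded (9.22%, 5.00 to 15.3), gaps of 200 bp and over but under 500 bp held 133, with 7 (5.26%), and wider gaps 65, with 3 (4.62%). These intervals overlap. By annotation, the summit lay outside genes in 149 members (13 thresholded), in a 3′ UTR in 203 (11), in a coding exon in 230 (12) and in an intron in 22 (1). In 4 (0) it lay in an exon, of any kind of gene, with no coding sequence or UTR annotated there.

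Each autosome held 108 to 133 members, with a thresholded share of 1.64% to 10.5%. Chromosomes I to V held 121, 108, 133, 124 and 122 members, of which 8, 3, 14, 10 and 2 were thresholded. The share was 10.5% on III (5.88 to 17.0) and 1.64% on V, against 1.31% and 0.422% of the other autosomal regions there. Chromosome V held 20.1% of members and 26.8% of the other regions. The middle part of each chromosome, when cut into 3 equal parts, held 46.2% of members and 33.0% of other regions, with a thresholded share of 4.98% among its members.

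Sequence at member summits held less G and C on average than at other regions, by less than 1 SD. The share within 50 bp of the summit was 39.3% ± 8.06 (SD over 608 regions), against 41.0% ± 8.39 at lone ends and 43.3% ± 8.05 near neither. At 400 bp from the summit it was 36.9% ± 6.59 for members, 35.0% for lone ends and 36.5% for regions near neither. The poly(A) signal AATAAA, searched on both strands (TTTATT is its reverse complement) in the 301 bp around each summit, was present in 442 members (72.7%, 69.0 to 76.2), on both strands in 143. It was present at 47.2% of lone ends, 56.1% of regions with an end and a start, and 32.0% of regions near neither. Since the rule chose places where genes end, this describes the place. Among thresholded members 30 of 37 held it, and the median signal was 31.2 with it and 33.4 without.

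A search for the core of the B box, the internal promoter element of tRNA genes, was added after the printed sequences had been seen. The letters GTTCGANNC, or GNNTCGAAC on the other strand, stood within 150 bp of the summit in 20 of 608 members (3.29%), against 3.09% of lone ends, 3.64% of regions near neither and 38.1% of the 496 autosomal regions beside small RNA genes. Among the 27 strongest entries over thresholded regions 3 held them (11.1%, 2.35 to 29.2). In the same set of other classes they stood in 8 of 39 near neither (20.5%) and 2 of 24 at starts only (8.33%). At lone ends they stood in 2 of 45 (4.44%), and at an end and a start in 1 of 51 (1.96%). At mrpl-40 with pat-4 the match (GTTCGATCC on the minus strand, III:89307-89315) was centred 3 bp from the summit, inside the capitals of the last printed sequence, and the nearest annotated tRNA gene was 446075 bp away. At cbd-1 with fbxb-76 the match (GTTCGAATC on the minus strand) lay 41 bp from the summit, and at arl-13 with rla-1 143 bp, in a coding exon of rla-1. A match is a description of letters, and binding to it was not tested.

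Genes at the members were grouped by 16 lists of names, with a member counted when a list gene was 1 of the nearest ends. Members at ribosomal protein genes stood high, with a median percentile of 92.6 over 25 members, 4 of them thresholded (16%), against 68.5 and 6.09% over all members. In 20 of the 25 the summit lay past the end of the ribosomal protein gene, against 62.3% of gene ends over all members. Of the 15 with the summit inside 1 gene, it lay past that end in 10 and inside the ribosomal protein gene in 5. In convergent pairs were 33 of the 81 autosomal genes of the list. Translation factors had a median percentile of 93.9 over 7 members, none thresholded, led by eef-1A.1 (68.0), the elongation factor that brings tRNA to the ribosome, eef-1G (63.2), ife-3 (51.8) and eif-3.D (49.7). Chaperones had 91.4 over 11 members, 3 of them thresholded at 2 pairs, hsp-1 and cct-7, with dnj-19 next at 50.2. The oxidative phosphorylation list, matched by gene name and so without Y82E9BR.3, had 88.2 over 7 members, 4 of them thresholded at 2 pairs, atp-1 and cox-4, followed by nuo-5 (44.9) and cox-6A (41.8).

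Members at proteasome genes had a median percentile of 83.6 over 8 members, led by rpn-6.1 (58.9), rpt-6 (52.4), rpn-5 (45.8) and pas-7 (44.1). The germline list, matched by gene name and so without the thresholded members at hrde-1 and rde-12, had 82.1 over 14 members. Of these, 2 were thresholded, both at prg-1, followed by pos-1 (76.6), glh-2 (75.5) and nos-1 (68.6). Splicing factors had 75.7 over 8 members, led by rsp-5 (65.8), rsp-7 (46.2), rsp-3 (42.5) and snr-6 (35.6), and tRNA synthetases 68.8 over 6, led by ears-2 (41.2), iars-2 (38.8), cars-1 (36.3) and dars-1 (28.5). Histone genes had 88.5 over 4 members, led by those with edg-1 (66.6) and memi-3 (48.3), where the histone genes are separate copies that share the name his-47, and followed by his-63 (38.3) and his-61 (23.1), none of them thresholded. Mitochondrial ribosomal proteins had 50.2 over 4, with mrpl-40 thresholded and mrpl-28 (42.8), mrpl-35 (20.6) and mrps-10 (19.7) well below it.

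Members at nuclear hormone receptor and cuticle collagen genes had lower medians than all members. Nuclear hormone receptor genes, a large family of ligand-gated transcription factors, had a median percentile of 42.1 over 15 members, led by nhr-100 (61.0), nhr-274 (60.4), nhr-119 (57.6) and nhr-66 (44.9). Cuticle collagens had 42.9 over 6 members, led by col-140 (42.5), col-85 (27.3), col-8 (27.05) and col-69 (24.0). No member of either list was thresholded. Single members stood at cap-2 of the thin filament list (27.6), nspd-10 of the major sperm protein list (20.7) and vit-6, a yolk protein gene (40.4). The homeobox list had 2, at ceh-38 (54.5) and npax-3 (31.3). Lists were matched by gene name, so a listed gene need not be of the named kind. Over all lists 14 of 116 members were thresholded (12.1%, 6.76 to 19.4), against 23 of 492 members at no list gene (4.67%, 2.99 to 6.93), and the lists were chosen with results of these data known. Both counts hold weaker neighbours of strong entries, in the lists those at hsp-1, prg-1, atp-1 and cox-4. The intervals therefore count some pairs of ends more than once.

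**Figure D5:**
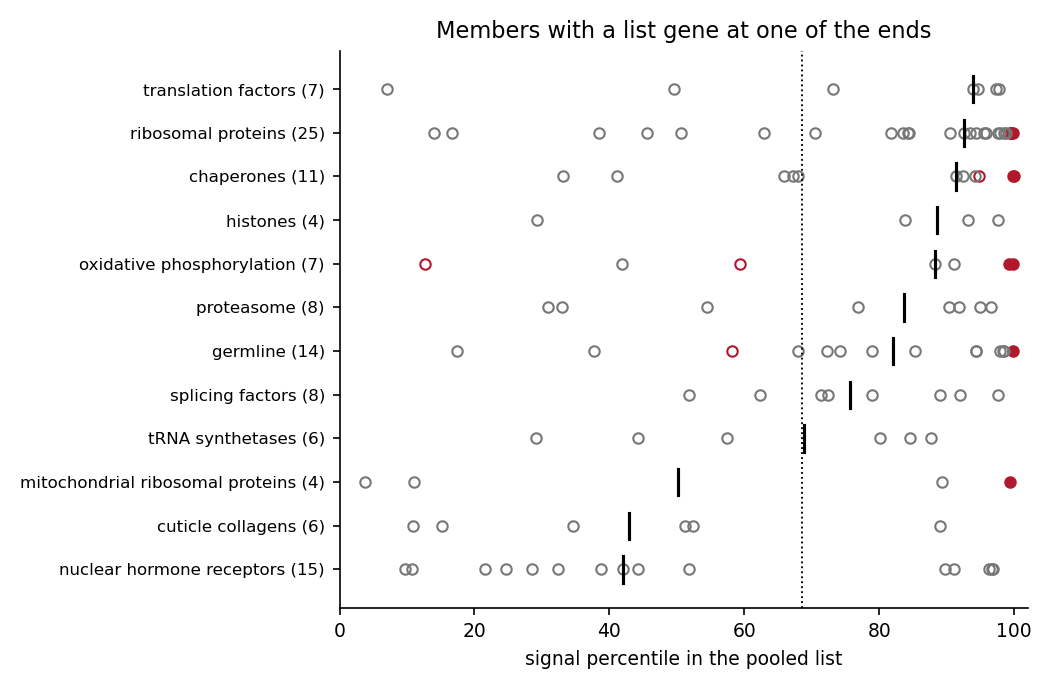
Signal percentile of each member in the pooled list (x axis, per cent of the 30000 entries) for lists with at least 4 members, whose number is in brackets. Filled red points are strongest entries over thresholded regions, open red points weaker neighbours and grey points members that were not thresholded. Black bars are list medians and the dotted line is the median of all 608 members at 68.5, with ribosomal proteins at 92.6 and nuclear hormone receptors at 42.1.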

How the data were processed

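ChIP-seq of tagged T26A5.8 was given as region lists on ce11, and the analysis started from those lists. The deposited notes and the labels describe 1 list per replicate of peaks with background regions as input to the IDR procedure. A list of the same kind came from both replicates pooled, and the thresholded list was kept from all 3. Which aligner and caller were used is not given in the sources used here. The deposited signal is the enrichment value of the authors' caller, with unstated scaling, and was used only to rank and describe entries within a list. The deposited −log10 q-value of the authors' caller was not used for ranking. Read depth is unknown, so no counting error of reads can be given.

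Genes came from Ensembl release 115 (WBcel235), with 19973 protein-coding genes, and coordinates count from 1. An entry was placed by its summit, and counted as thresholded when it overlapped a thresholded region by at least 1 bp. The percentile is the rank of the signal within a list. Each member was named by the plus-strand and minus-strand protein-coding genes whose ends lay nearest its summit. Named were members overlapping the thresholded list (the 25 strongest in full, the others with their signal), the 10 strongest members not overlapping it, and the 4 strongest members, or fewer, for each gene list. A member's value in a replicate is that of the best overlapping entry there. Intervals are exact 95% binomial intervals, and for medians 95% order-statistic intervals. Because only 1 group exists, no test was run. The counting steps were checked on simulated regions. Python 3.11.15, numpy 2.4.6, scipy 1.17.1 and matplotlib 3.10.9 were used.

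The members and lists were chosen with earlier results of these data known. Alternatives were other end and start windows, other distances from small RNA genes, 1 region per pair of ends, each replicate's list alone with its 369 strongest entries, 50% reciprocal overlap, the thresholded summit inside the entry, the stronger 184 of the thresholded list and, chosen after seeing the data, only the strongest entry per thresholded region. Lists on ce10 were not used here.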

Additional observations from a re-analysis of the deposited data

How the results depend on the processing

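The share of convergent ends that was thresholded was 6.09%, and 10 of 13 alternatives stayed within its 95% interval. It was 3.17% with an end window reaching from 500 bp before to 1000 bp past the end (58 of 1827 regions) and 3.125% with the stronger 184 thresholded regions. With a single replicate's list it ran from 3.95% to 5.93%, the lower value without replicate 4. The share at lone ends was 2.39%. It was 3.78% with a window of 100 bp before to 200 bp past the end, 1.27% with the wider window, 1.47% with 50% reciprocal overlap, 1.69% with the thresholded summit inside the entry, 0.883% with the stronger 184 regions and 1.66% with the strongest entry only, which was added after seeing the data. With a single replicate's list it ran from 1.65% to 1.98%. Convergent ends exceeded lone ends in each of the 12 alternatives that gave both, by 1.91 to 4.57 percentage points. Regions with both an end and a start were not followed through all of these alternatives. The 50% overlap, summit-inside, stronger 184 and strongest-entry settings each kept a part of the same overlaps, so the share could not rise. The cause of the other moves was not tested.

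The median signal percentile of convergent ends was 68.5, ran from 65.1 to 73.6 with a single replicate's list, and was 62.1 with the wider end window. Other alternatives stayed within its interval. No paired analysis was possible because there is only 1 group. With 37 thresholded members, shares in small sets such as gene lists have wide intervals, and the unknown read depth leaves the precision of each signal value unknown.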

Other observations

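The member at Y41D4B.6 and nhr-274, singled out after its values were seen, had a B box core (GTTCGAGCC on the plus strand, IV:1637558-1637566) centred on its summit. Its signal was 60.4 in the pooled list, it was not thresholded, and the nearest annotated tRNA gene lay 122895 bp away, with no annotated gene over the match. Over the 20 members with the letters of the B box core the median signal was 37.6, against 31.5 over the 588 without.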
